A study of Mus musculus with 3 samples.

Results

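The inner ring and the membrane nucleoporins hold the nuclear pore complex (NPC) in the nuclear envelope. The 9 genes described here were taken from a list of names: Nup205, Nup188, Nup155, Nup93 and Nup35 of the inner ring, Nup210, Ndc1 and Pom121, which encode the transmembrane nucleoporins, and Aaas, whose product ALADIN is held at the pore by NDC1. The list names genes and sets no threshold on a measured value, but it was drawn up with earlier results of these data known. They are 9 of the 24421 genes in the deposited read counts, and all 9 averaged at least 10 reads per library.

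RNA-Seq was performed on undifferentiated female mouse embryonic stem (ES) cells of the EL 16.7 line, an F2 line of 129S1 and CastEiJ background. The cells carried lentivirus with a scramble shRNA (control, labelled wild type) or with an shRNA against NUP153, shRNA-1 in the library named KD-1 and shRNA-2 in the library named KD-2. All were selected for 2 days in puromycin at 2 μg/ml. All cultures were kept with LIF and serum on γ-irradiated mouse embryonic fibroblasts of Tg(DR4)1Jae/J mice, so that the RNA of each library can hold RNA of feeder cells. Each condition has 1 library, and the knockdowns are transduced, selected cell populations and not clones.

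The NPC is a channel of nucleoporins through which proteins and RNA pass between nucleus and cytoplasm. Its inner ring lines the fused membranes of the envelope. NUP93 joins the large scaffold proteins NUP205 and NUP188 and holds the central channel in place, while NUP155 and NUP35 (also named NUP53) connect the ring to the membrane. Of the transmembrane proteins, NDC1 crosses the membrane several times, POM121 has a part with FG repeats and is needed to insert new pores during interphase, and NUP210 lies mostly in the lumen of the envelope. NUP153, the target of the shRNAs, belongs to the nuclear basket and not to either group.

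Reads on genes numbered 69839336 to 85258834 per library. Nup153 was counted with 27870 control reads, 16451 KD-1 reads and 11126 KD-2 reads, a log2 ratio of -0.99 in KD-1 compared to -1.43 in KD-2. Markers of ES cells were present in every library, with Pou5f1 at 218 RPKM in the control library, 235 in KD-1 and 210 in the KD-2 library (RPM, reads per 1000000 reads on genes, divided by the kilobases of exon). Fibroblast markers were present as well. The 10 listed markers summed to 2240 RPM in the control library, 1520 RPM in KD-1 and 4130 RPM in KD-2, and all 10 were below control in KD-1 and above control in KD-2. Fn1 had the most of these reads in every library, 83181 of 162228 in control, 92486 of 130008 in KD-1 and 129506 of 288690 in KD-2. Its log2 ratio was -0.08 in KD-1, nearest to control of the 10 there, and 0.53 in KD-2. From bulk RNA, a different number of cells of a type and a different amount of RNA per cell cannot be told apart. Between 21.5% and 24.1% of the reads of a library were deposited as lying on no counted feature, which can include reads within introns.

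To show where the promoters of the members lie and how they differ, bases upstream of the start site are given for Nup93, Nup205, Nup155 and Pom121. Nup93, Nup205 and Nup155 were lower in KD-2 by a similar amount, with log2 ratios of -0.56, -0.61 and -0.59. Nup210 was near to these in KD-2, at -0.55, and is not shown. Pom121 was the only member past 1.5-fold in KD-1. A link between these sequences and the ratios was not tested. The sequences are from RefSeq (GRCm38.p6), 5′ to 3′ on the strand of the gene, and only the part outside of annotated exons is shown. Counted from the start site, this part runs from -250 to -1 in Nup93 and Pom121. It ends at -196 in Nup205 and at -41 in Nup155. The match of GGGCGG in Nup205 (at -134) and that of CCGGAAGT in Nup155 (at -8) lie outside the part shown. Capitals mark motifs found on either strand: GGGCGG, known as the GC box, CACGTG, known as an E-box, TGACGT, the core of a cyclic AMP response element (CRE), and the CCAAT box, named by its letters. Of these letters, the E-box of Nup93 overlaps a GC box, and a pair of GC boxes in Nup93 and the pair in Nup155 overlap each other.

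Nup93 (chr8:94214314-94214563, plus strand): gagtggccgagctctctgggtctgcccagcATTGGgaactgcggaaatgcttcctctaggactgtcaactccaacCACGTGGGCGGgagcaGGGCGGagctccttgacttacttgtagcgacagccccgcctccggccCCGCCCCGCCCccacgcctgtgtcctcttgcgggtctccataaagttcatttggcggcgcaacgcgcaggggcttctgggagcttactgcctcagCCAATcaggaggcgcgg
Nup205 (chr6:35177366-35177420, plus strand): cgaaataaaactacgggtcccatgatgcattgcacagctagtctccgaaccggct
Nup155 (chr15:8109063-8109272, plus strand): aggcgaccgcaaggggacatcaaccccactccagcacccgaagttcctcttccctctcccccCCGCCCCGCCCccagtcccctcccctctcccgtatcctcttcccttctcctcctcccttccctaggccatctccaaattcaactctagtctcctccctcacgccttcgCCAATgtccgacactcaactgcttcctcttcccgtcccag
Pom121 (chr5:135394547-135394796, minus strand): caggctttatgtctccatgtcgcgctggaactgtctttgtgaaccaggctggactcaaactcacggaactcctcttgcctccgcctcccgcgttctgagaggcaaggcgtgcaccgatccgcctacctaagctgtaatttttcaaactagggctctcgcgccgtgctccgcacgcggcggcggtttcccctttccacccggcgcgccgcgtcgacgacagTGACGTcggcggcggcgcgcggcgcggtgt

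A promoter window of 300 bases (250 before and 50 after the start site) was found for 8 of the 9 members, all except Nup35. GC boxes were in 6 of the 8 windows, Nup205, Nup188, Nup155, Nup93, Nup210 and Ndc1, and in 35.7% of all 32851 windows. Pom121 and Aaas had no GC box in the window. The ETS motif (CCGGAAGT) was in the windows of Nup155 and Aaas and in 3.89% of all windows, and the E-box was in the windows of Nup188 and Nup93 and in 7.15% of all windows. The CRE core was in the window of Pom121, 30 bases before the start, and in 7.51% of all windows. The CCAAT box was in the windows of Nup155 and Nup93 and in 37.4% of all windows. An E2F motif (TTTCCCGC) was in the window of Nup210 and in 1.07% of all windows. In 0 of the 8 windows were the TATA box (TATAAA), in 13.6% of all windows, the second form of the E2F motif (TTTGGCGC), in 0.514%, and the palindromic NRF1 motif, in 0.971%. With 63.7% to 73.7% G and C in 6 of the windows, 62.7% in Nup155 and 55.7% in Aaas, all 8 lay above the median of all windows, which was 52.7%. These are matches of letters in a fixed window, and binding was not measured in these files.

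In control cells the members differed in level by more than an order of magnitude. Levels are compared in RPKM, per length of all annotated exons. Nup205 was highest at 55.1 RPKM, followed by Nup93 at 52.2 and Nup35 at 31.7. Nup188 was at 20.3 RPKM and Nup155 at 19.2, and Ndc1 at 15.8 and Aaas at 15.6 did not differ beyond the counting of reads. Nup210, known for its induction during muscle and neural differentiation, was at 3.92 RPKM, and Pom121 was lowest at 1.63 RPKM (95% counting interval 1.5 to 1.75). The median over genes that averaged at least 10 reads was 2.44 RPKM, so that in control cells 8 of the 9 members were above it and Pom121 was below it.

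The order held in most places in the knockdown libraries. Nup205 and Nup93 were the highest members in every library, followed by Nup35 and then Nup188, and Nup210 and Pom121 were the lowest in control, KD-1 and KD-2. In KD-1, Nup93 at 52.5 RPKM was above Nup205 at 49.5, and in KD-2, Nup205 at 40.3 and Nup93 at 39.7 were within the counting of reads. Aaas took rank 7 of 9 in the control library, rank 6 in KD-1 and rank 5 in the KD-2 library, at 15.6, 14.6 and 16.2 RPKM, while its neighbours Ndc1 and Nup155 had lower levels in KD-2 than in control. The order also rests on the exons that are annotated. With the length of the transcript that has the longest coding part, a choice made after the data were seen, Nup205 (80 RPKM), Nup93 (75.9 RPKM) and Nup35 (68.4 RPKM) were again highest in control, Nup155 (29.4 RPKM) and Aaas (24.1 RPKM) were above Nup188 (22.2 RPKM), and Nup210 (5.83 RPKM) and Pom121 (1.63 RPKM) were again lowest.

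**Figure D1:**
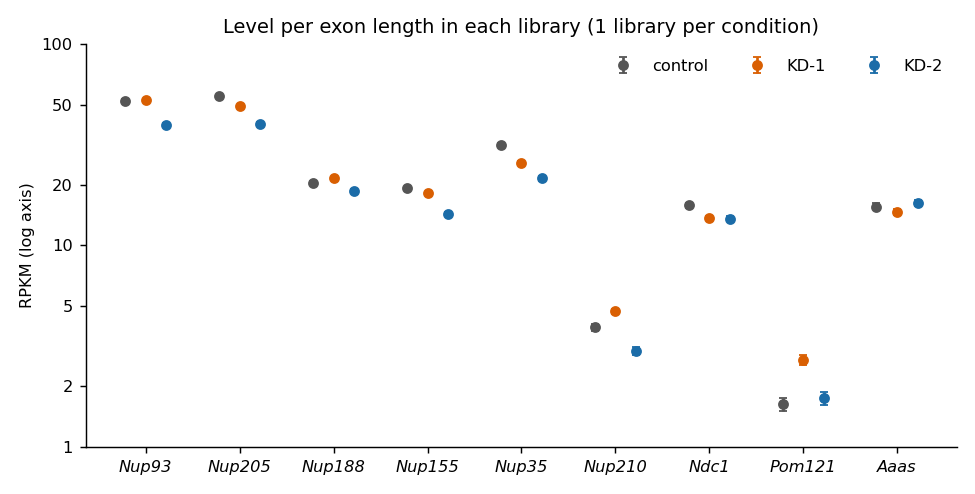
Level of each member in RPKM on a log axis in the control, KD-1 and KD-2 libraries (1 library per condition), with bars for the 95% interval of the counting of reads. Nup205 and Nup93 lie between 39.7 and 55.1 RPKM in all libraries, and Pom121 lies between 1.63 and 2.71 RPKM.

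To compare libraries, reads were scaled by upper-quartile normalization, and a log2 ratio was computed with a pseudocount of 0.5 reads. Since there is 1 library per condition, no test between conditions was made for KD-1 or KD-2 alone, and intervals cover the counting of reads only (exact, 95%). A gene is named as past the threshold when its fold is above 1.5, a log2 ratio of 0.58. In KD-1, 1 of the 9 members was past it, Pom121, which was higher, beside 8.63% of 16670 genes that were higher and 5.62% that were lower. In KD-2, 3 of the 9 were past it, Nup205, Nup155 and Nup35, all lower, beside 10.2% of genes that were lower and 17.1% that were higher. Nup93 at -0.56 and Nup210 at -0.55 lay just short of it. Over 6 settings (5 scalings, and upper-quartile normalization also with a pseudocount of 5), Nup35 was past it in 4, Nup205 in 2 and Nup155 in 2. Nup205 and Nup155 were past it only with upper-quartile normalization. Among the 12743 genes that averaged at least 100 reads, as all members did, 3.76% were higher by that fold in KD-1 and 8.69% were lower by it in KD-2. The median log2 ratio of the members was -0.07 in KD-1 and -0.55 for KD-2, whereas that of all genes tested was 0.02 and -0.02. The difference of these medians in KD-2 was -0.53. A scaling shifts the log2 ratios of all genes by almost the same amount, so that this difference and the order of the members cannot depend on it. The scalings moved the median of all genes in KD-2 by 0.16 with reads on all genes and by 0.42 with the other nuclear pore genes, and by 0.04 with TMM or DESeq2's size factors. With upper-quartile normalization, highly read genes were lower in KD-2 in general. For the 1560 genes that averaged at least 10000 reads, Nup205, Nup155 and Nup93 among them, the median was -0.35 in KD-2 and -0.04 in KD-1. For the 6321 genes between 1000 and 10000 reads, with 5 of the members, it was -0.10 and -0.01. For the 4862 genes between 100 and 1000 reads, Pom121 among them, it was 0.15 in KD-2 and 0.07 in KD-1.

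**Figure D2:**
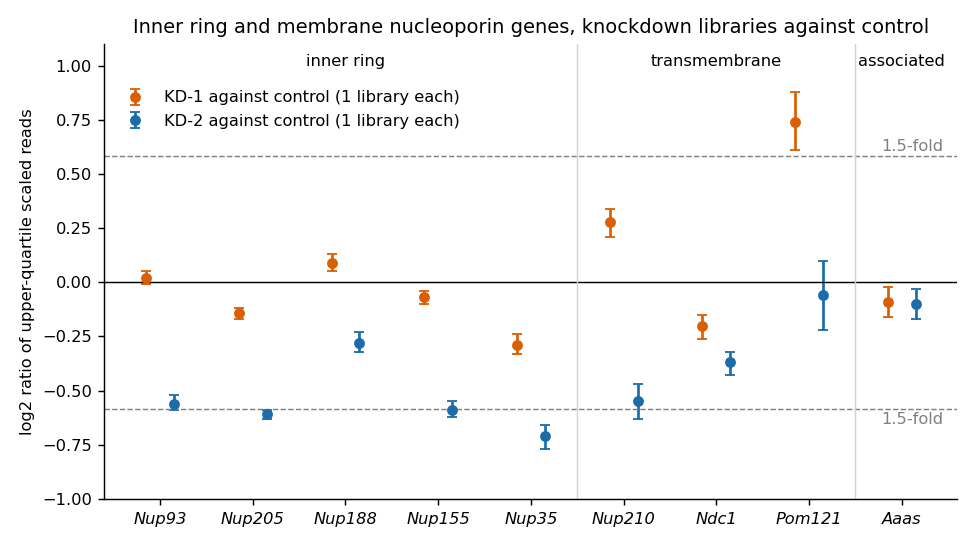
Log2 ratio of upper-quartile scaled reads against control for each member in KD-1 and KD-2, with bars for the 95% interval of the counting of reads and dashed lines at 1.5-fold. Pom121 in KD-1 is the only point above the upper line, at 0.74, and Nup205, Nup155 and Nup35 in KD-2 lie beyond the lower line, with Nup155 at -0.59 almost on it.

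Nup93, whose product is the link of the inner ring and is mutated in hereditary nephrotic syndrome, lies at chr8:94214564-94317227 (GRCm38). It was counted with 16088 control reads, 19066 KD-1 reads and 11792 KD-2 reads. With upper-quartile normalization, control and KD-1 differed by less than the counting error and KD-2 was lower. Its log2 ratio was 0.02 in KD-1 (interval -0.01 to 0.05, but -0.08 to -0.02 with DESeq2's size factors), below 0 in 2 of 6 settings, and -0.56 in KD-2 (interval -0.59 to -0.52).

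Nup205 and Nup188 encode large scaffold proteins that bind NUP93 in place of each other. Nup205 (chr6:35177421-35247596) was counted with 37099 control reads, 39312 KD-1 reads and 26179 KD-2 reads. It was below control in both, at -0.14 in KD-1 (interval -0.17 to -0.12) and -0.61 in KD-2 (interval -0.63 to -0.59). Nup188 (chr2:30286397-30344266) was counted with 9183 control reads, 11431 KD-1 reads and 8166 KD-2 reads. It was above control in KD-1, at 0.09 (interval 0.05 to 0.13, but -0.02 to 0.06 with DESeq2's size factors), and below it in KD-2, at -0.28 (interval -0.32 to -0.23), but above it there when scaled by the other nuclear pore genes. The ratio of Nup188 to Nup205 reads does not depend on the scaling of libraries. It was 0.248 in control (interval 0.242 to 0.253), 0.291 in KD-1 (0.285 to 0.297) and 0.312 in KD-2 (0.304 to 0.320). Per exon length, the ratio was 0.369, 0.434 and 0.465. Nup188 was the less abundant transcript of the partners in every library, and its ratio to Nup205 was higher in both knockdown libraries than in control. For Nup188, 7.88% of the exon length overlaps a gene on the opposite strand and 4.55% a gene on the same strand, neither of which was counted.

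Nup155 and Nup35 connect the ring to the membrane, and Nup155 is known as a gene of familial atrial fibrillation. Nup155 (chr15:8109273-8161247) was counted with 16632 control reads, 18537 KD-1 reads and 11939 KD-2 reads, with a log2 ratio of -0.07 in KD-1 (interval -0.10 to -0.04) and -0.59 in KD-2 (interval -0.62 to -0.55). Its ratio to Nup93 reads was 1.03 in the control library, 0.972 in KD-1 and 1.01 in the KD-2 library, and the interval of KD-2 overlapped those of control and KD-1, which did not overlap each other. Nup35 (chr2:80617236-80658906) was counted with 7712 control reads, 7400 KD-1 reads and 5063 KD-2 reads. It was the lowest member in both knockdowns, at -0.29 in KD-1 (interval -0.33 to -0.24) and -0.71 in KD-2 (interval -0.77 to -0.66). Relative to Nup93, Nup35 reads were at 0.479 in the control library, 0.388 in KD-1 and 0.429 in the KD-2 library, and the intervals of the 3 libraries did not overlap. Dusp19, which shares 3.89% of the exon length of Nup35 on the same strand, was counted with 321 control reads, 314 KD-1 reads and 233 KD-2 reads.

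Among the 12743 genes that averaged at least 100 reads, the 3 whose pair of log2 ratios lay nearest to that of Nup35 were Pcna (-0.28 in KD-1 compared to -0.71 in KD-2), Scarna10 (-0.29 and -0.70) and E2f7 (-0.30 and -0.71). With 2 ratios per gene, 100 of the genes lay within a distance of 0.1. Nearest to Aaas, the member closest to control with upper-quartile normalization, were Zfp839, Hadha and Lemd3, with 514 genes within that distance.

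In KD-1 the transmembrane nucleoporins spread more widely than the inner ring genes. Their log2 ratios ranged from -0.20 to 0.74 in KD-1 and from -0.55 to -0.06 in KD-2, while the 5 inner ring genes ranged from -0.29 to 0.09 and from -0.71 to -0.28. Nup210 (chr6:91013068-91116829) was counted with 2968 control reads, 4211 KD-1 reads and 2188 KD-2 reads. Relative to library size, KD-1 was the highest library and KD-2 the lowest, with log2 ratios of 0.28 (interval 0.21 to 0.34) and -0.55 (interval -0.63 to -0.47). Ndc1 (chr4:107367784-107416346) was counted with 5644 control reads, 5738 KD-1 reads and 4688 KD-2 reads. It was below control in both knockdowns, at -0.20 (interval -0.26 to -0.15) and -0.37 (interval -0.43 to -0.32), with the direction in KD-2 turned when scaled by the other nuclear pore genes. The ratio of Nup210 to Ndc1 reads was 0.526 in the control library, 0.734 in KD-1 and 0.467 in the KD-2 library, with intervals that did not overlap.

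Pom121 (chr5:135376141-135394546) had the fewest reads of all members, 656 in the control library, 1288 in KD-1 and 677 in the KD-2 library. With upper-quartile normalization, KD-1 was the highest library, and the counting interval of KD-2 included control. The log2 ratio was 0.74 in KD-1 (interval 0.61 to 0.88), a fold of 1.68, which lies at percentile 94.4 of all genes tested, and -0.06 in KD-2 (interval -0.22 to 0.10). It was past 1.5-fold in KD-1 in 6 of 6 settings of scaling and pseudocount, at 0.68 to 0.75. Relative to Ndc1, Pom121 reads were at 0.116 in control (interval 0.107 to 0.126), 0.224 in KD-1 (interval 0.211 to 0.238) and 0.144 in KD-2 (interval 0.133 to 0.157), so that KD-2 lay above control as well. Relative to Nup210, Pom121 reads were at 0.221, 0.306 and 0.309, with the intervals of both knockdowns above that of control. Scaled by the other nuclear pore genes, Pom121 was at 0.36 in KD-2. Of the exon length of Pom121, 11.9% overlaps Nsun5 on the opposite strand, and whether the counting used the strand is not stated in the sources used here. Nsun5 was counted with 1282 control reads, 1539 KD-1 reads and 1258 KD-2 reads, a log2 ratio of 0.04 in KD-1 compared to -0.13 in KD-2. The part of shared reads in the difference of Pom121 was not tested.

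Aaas, which is mutated in Allgrove syndrome, lies at chr15:102338252-102350771. It was counted with 3162 control reads, 3485 KD-1 reads and 3174 KD-2 reads. With upper-quartile normalization it lay nearest to control of all members over both knockdowns, but not when scaled by the other nuclear pore genes, where it was at 0.32 in KD-2. Its log2 ratio was -0.09 in KD-1 (interval -0.16 to -0.02) and -0.10 in KD-2 (interval -0.17 to -0.03), where it was above control in 2 of 6 settings. The KD-2 interval included control with TMM (-0.13 to 0.01), DESeq2's size factors (-0.14 to 0.01) and reads on all genes (-0.02 to 0.13). Relative to Ndc1, its partner at the membrane, Aaas reads were at 0.560 in the control library, 0.607 in KD-1 and 0.677 in the KD-2 library. The intervals for control and KD-1 overlapped, and that for KD-2 (0.647 to 0.708) lay above both.

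In direction alone, 9 of 9 members were below control in KD-2 with upper-quartile normalization, beside 51.7% of all genes, and 5 of 9 were below it in KD-1, beside 46.9%. In KD-2, Pom121 and Aaas turned above control when libraries were scaled by reads on all genes, at 0.10 and 0.06, and Nup188 and Ndc1 were also above it when scaled by the other nuclear pore genes. With upper-quartile normalization, the counting interval lay below 0 for 8 members in KD-2, as it did for 36.4% of all genes and 44.9% of those that averaged at least 100 reads, and included 0 for Pom121. It lay below 0 for 7 members with TMM, DESeq2's size factors or reads on all genes, and for 5 members, with 3 above 0, when scaled by the other nuclear pore genes. In KD-1 the interval lay below 0 for 5 members and above it for 3, beside 26.7% and 28.3% of all genes and 33% and 31.8% of those that averaged at least 100 reads, and included 0 for Nup93. With DESeq2's size factors these were 6 and 2 members, and the interval of Nup188 included 0.

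**Figure D3:**
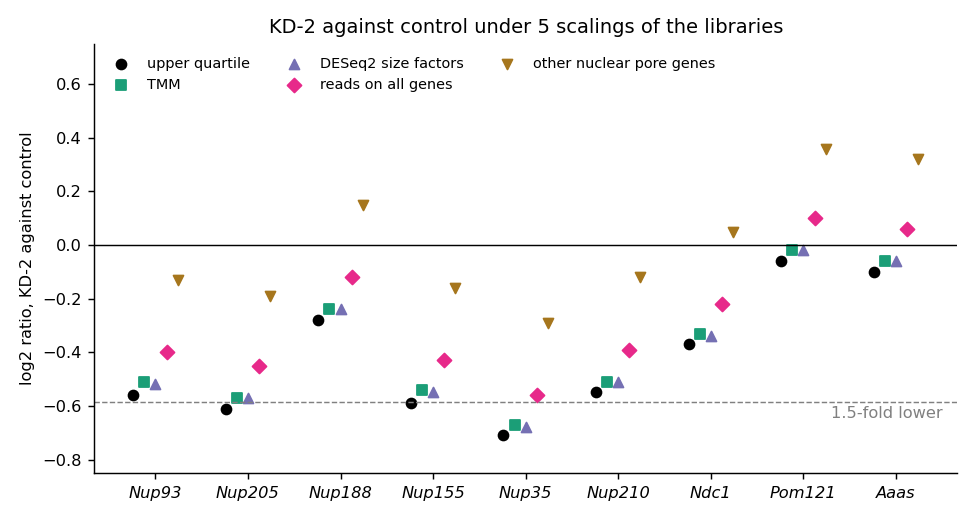
Log2 ratio of each member in KD-2 against control under 5 scalings of the libraries (1 library per condition), with a dashed line at 1.5-fold lower. Each scaling shifts all members by the same amount. Nup35 takes values from -0.71 to -0.29, and Pom121 and Aaas lie within 0.10 of control on either side, except under scaling by the other nuclear pore genes, where Nup188 and Ndc1 are above control too.

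The knockdown libraries can be compared without the control library. All 9 members were higher in KD-1 than in KD-2 with upper-quartile normalization, beside 58.9% of all genes, and under other scalings Nup188, Ndc1 and Aaas turned lower. With that normalization the counting interval lay above 0 for 8 members, beside 42.7% of all genes and 50.5% of those that averaged at least 100 reads. Scaled by the other nuclear pore genes, it lay above 0 for 5 members and below 0 for 3. Higher by more than 1.5-fold were 2 members, beside 13.9% of all genes and 10.9% of those that averaged at least 100 reads. These were Nup210 at 0.82 (interval 0.75 to 0.90) and Pom121 at 0.81 (interval 0.67 to 0.94). The median was 0.46, compared to 0.12 over all genes. Aaas was at 0.01 (interval -0.06 to 0.08), and below 0 in 4 of 6 settings. Nup153 was also higher in KD-1 than in KD-2, at 0.44.

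When KD-1 and KD-2 were fitted together and set against control, the quasi-likelihood test of edgeR had 1 residual degree of freedom and took the spread from the difference between KD-1 and KD-2. It called 0 of the 9 members and 0 of 16670 genes (0%) at an adjusted p under 0.05, and 0 members had an unadjusted p under 0.05, compared to 190 genes (1.14%). The lowest unadjusted p of a member was 0.207, for Nup35 at a log2 fold change of -0.47, and the adjusted p of each member was 1. The Wald test of DESeq2 also called 0 members, and 2 genes in all, with 80 genes at an unadjusted p under 0.05, and with upper-quartile scaling edgeR called 4 genes and 0 members. Nup153 was at -1.18 with an unadjusted p of 0.00472 and an adjusted p of 1 in edgeR's test. At this spread between the knockdown libraries, no difference of a member between knockdown and control was called. The size of difference that could be detected was not tested.

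The other genes of the pore were read in the same way. Of 21 such genes (Nup153 left out), 0 were past 1.5-fold in KD-1, with a median log2 ratio of 0.01. In KD-2, 6 were past it, all lower, with a median of -0.44. Of all genes tested, 10.2% were lower by that fold in KD-2, and 8.69% of those that averaged at least 100 reads. All 21 were below control in KD-2 with upper-quartile normalization, at -0.85 to -0.08, beside 51.7% of all genes. With reads on all genes, 19 were below it. The number past 1.5-fold was 4 with TMM, 4 with DESeq2's size factors and 2 with reads on all genes. Of all 16670 genes, 1392, 1415 and 820 were lower by that fold with these scalings. By group, the 9 genes of the Y complex, the outer scaffold of the pore, had a median of -0.11 in KD-1 compared to -0.60 in KD-2, close to the values of the 5 inner ring genes, -0.07 and -0.59. The 10 cytoplasmic and central channel genes were at 0.06 and -0.25, and Nup50 and Tpr of the basket had a median of 0.03 and -0.36. Within each group, the genes farthest from control were Nup43 of the Y complex, at -0.47 in KD-1 compared to -0.85 in KD-2, Nup214 (0.38 in KD-1) and Nup54 (-0.59 in KD-2) of the cytoplasmic and central channel genes, and Nup50 (0.04 in KD-1) and Tpr (-0.45 in KD-2) of the basket. When the summed reads of these 21 genes were used to scale the libraries, the median of the members was -0.06 in KD-1 compared to -0.12 in KD-2, and 0 members were past 1.5-fold in KD-2. Of related genes, Tmem33, a membrane protein found with nucleoporins, was at -0.18 in KD-1 compared to -0.13 in KD-2. Nup210l, a paralog of Nup210, had 343 to 455 reads per library, and Pom121l2, a paralog of Pom121, had 6 to 15 reads.

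**Figure D4:**
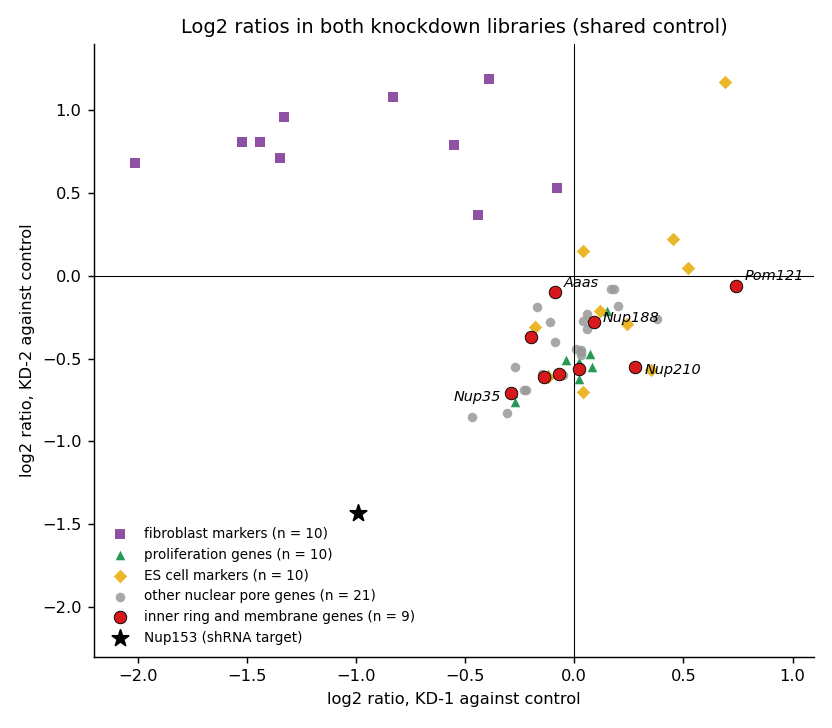
Log2 ratio in KD-1 (x axis) and in KD-2 (y axis) for the members, the 21 other nuclear pore genes, Nup153 and 3 lists of marker genes. Both axes use the same control library, so that the positions along them are not independent. Pom121 lies to the right of the other pore genes, at 0.74 in KD-1 where the highest of them is at 0.38, and the fibroblast markers lie at -2.01 to -0.08 in KD-1 and 0.37 to 1.19 in KD-2.

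Marker genes of cell types also differed between the libraries. The 10 fibroblast markers had a median log2 ratio of -1.08 in KD-1 compared to 0.80 in KD-2. Past 1.5-fold were 6 that were lower in KD-1, beside 5.62% of all genes, and 8 that were higher in KD-2, beside 17.1%. Col1a1 was at -0.55 and 0.79. The 10 ES cell markers had a median of 0.18 and -0.25, with 8 above and 2 below control in KD-1, and 4 above and 6 below it in KD-2. Pou5f1 was at 0.12 and -0.21, Sox2 at -0.18 and -0.31, and Utf1 at 0.69 and 1.17. The 10 proliferation genes, of DNA replication and mitosis, had a median of 0.02 in KD-1 compared to -0.53 in KD-2. Past 1.5-fold were 0 in KD-1 and 4 in KD-2, all lower, beside 10.2% of all genes that were lower in KD-2. The fibroblast markers kept their directions under all 5 scalings, and the number of proliferation genes past 1.5-fold in KD-2 was 0 to 4. The 6 primitive endoderm markers summed to 7.53 RPM in the control library, 9.07 RPM in KD-1 and 12.2 RPM in KD-2. Most of these reads were of Dab2, with 361 of 545 in control, 502 of 773 in KD-1 and 604 of 851 in KD-2. Of the 5 that averaged at least 10 reads, 4 were above and 1 below control in KD-1. In KD-2, 3 were above and 2 below it, with Gata4 at -0.24 and Sox7 at -0.20. The part of feeder cells, proliferation or the read level of a gene in the values of the members was not tested, and with 1 library per condition they cannot be told apart from the knockdown.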

How the data were processed

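Total RNA of 3 libraries was depleted of ribosomal RNA and sequenced. Per the labels' processing notes and the study's methods, the authors trimmed reads with Trim Galore 0.4.1, mapped them with TopHat2 2.1.1 to mm10, and the deposited files hold whole-number read counts for each gene, not normalized. The notes name HTSeq and the methods featureCounts, and the deposited counts end in 5 summary lines that name no gene (23.0% to 25.6% of the reads), which were left out. Counts were scaled with edgeR 4.0.16 in R 4.3.3 (upper quartile), and ratios have exact Clopper-Pearson intervals of 95%. The 16670 genes that averaged at least 10 reads were used. Both knockdowns together were tested with edgeR's quasi-likelihood test (TMM, Benjamini-Hochberg) and DESeq2 1.42.0. p-values measure only the spread between these libraries. Exon lengths and positions are from GENCODE M21 (GRCm38). Scripts were tested on simulated data. The named genes were all members, Nup153, paralogs, Tmem33, the pore genes with the largest ratio per list and the nearest genes. Nsun5 and Dusp19 were named for their overlap with members, and Col1a1 and Pou5f1 as examples of markers. Fn1 and Dab2 had the most reads of their lists. Sox2, Utf1, Gata4 and Sox7 were named outside of these rules. The members and lists were chosen with earlier results of these data known. Alternatives were other scalings, a pseudocount of 5, a fold of 2 or a log2 ratio of 0.32, and minimum means of 1 read in any library or of 100 reads.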

Additional observations from a re-analysis of the deposited data

Results flagged for a closer look

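With upper-quartile normalization, the counting intervals of Nup188 and Nup210 lay on opposite sides of control in the knockdown libraries, above it in KD-1 and below it in KD-2. The log2 ratio of KD-1 against KD-2 was 0.36 for Nup188 and 0.82 for Nup210. With 1 library per knockdown, the difference between the knockdowns was not tested. With DESeq2's size factors, the interval of Nup188 in KD-1 included control (-0.02 to 0.06). When libraries were scaled by the other nuclear pore genes, Nup188 was above control in both knockdowns (0.10 and 0.15), and Nup210 kept its directions (0.28 and -0.12).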

How the results depend on the processing

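All counts rest on 1 library per condition, and the cause of a value that moved with the scaling was not tested beyond the shift of the median of all genes that each scaling brings. In KD-2, the number of members past 1.5-fold was 3 with upper-quartile normalization, 1 with TMM, 1 with DESeq2's size factors, 0 with reads on all genes and 0 with the other nuclear pore genes. Of all 16670 genes, 1700 were lower by that fold with upper-quartile normalization, 1392 with TMM, 1415 with DESeq2's size factors and 820 with reads on all genes. The number of members was 0 at a fold of 2, beside 1.85% of all genes that were lower by that fold, and 6 at a log2 ratio of 0.32, beside 26.9%. The median of the members was -0.39 with reads on all genes and -0.12 with the other pore genes. In KD-1, the number past the threshold was 0 at a fold of 2 (3.09% of all genes higher), and the median was -0.14 with DESeq2's size factors. For KD-1 against KD-2, the number was 0 with the other pore genes, 0 at a fold of 2 (3.14% of all genes higher) and 7 at a log2 ratio of 0.32 (33.6%), and the median was 0.41 with TMM, 0.36 with DESeq2's size factors, 0.30 with reads on all genes and 0.05 with the other pore genes. No median changed its direction. A pseudocount of 5 reads left these counts as they were. With KD-1 and KD-2 fitted together, 0 members were called under any setting, and the median log2 fold change was -0.23. It ranged from -0.51 to -0.09 when a knockdown library was left out, where no residual degree of freedom remains and no test was made. No paired analysis was possible because each condition has 1 library.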
